A study of Homo sapiens with 11 samples.

Results

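The genes described here encode the proteins of the cytosolic ribosome, the particle that makes protein outside the mitochondria. They were chosen by name alone: every gene whose symbol starts with RPL or RPS followed by a number, with an A, X or L suffix allowed, together with RPLP0, RPLP1, RPLP2 and RPSA. The rule found 84 of the 58699 genes in the table. No measured value enters the rule, though earlier results of these data were known when the family was taken up. All 84 are protein-coding. Of these, 31 belong to the small (40S) subunit, 43 to the large (60S) subunit and 3 to the stalk of the large subunit (RPLP0, RPLP1 and RPLP2). The other 7 are paralogs, second gene copies that encode a variant of a core protein (RPL3L, RPL7L1, RPL10L, RPL22L1, RPL26L1, RPL39L and RPS27L). The 77 genes other than the paralogs are called core genes below. Ribosomal proteins that carry other names (such as FAU, RACK1 and RPL36AL) fell outside the rule and are given separately.

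All samples were HCT116, an established mismatch-repair-deficient human colorectal carcinoma line. The cells carried an siRNA against luciferase (siLuc, a control with no human target) or against Staufen1 (siStau1), a protein that binds double-stranded RNA. They received the solvent DMSO or decitabine (DAC), which blocks DNA methyltransferases, at 500 nM for 5 days. Total RNA was sequenced after depletion of ribosomal RNA in 4 groups of 2 libraries each, named by siRNA and drug (siLuc DMSO and siLuc DAC, siStau1 DMSO and siStau1 DAC), and values of 1 gene are given in that order.

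The authors deposited 1 expression value per gene and group, in FPKM (fragments scaled to transcript length and library size), and no value for the single libraries. No spread between the 2 libraries of a group can therefore be given, and the depth behind each value is unknown. A gene is said to have risen or fallen only where the authors' deposited table gives a q-value (their p-value adjusted over all tests) under 0.05. Other differences are given as values. A log2 ratio here is the log2 of (FPKM + 0.1) in one group over that in another, so that -1 is about a halving on a linear scale. STAU1, the gene the siRNA targets, stood at 35.5 FPKM without and 33.7 with DAC under siLuc, and at 30.0 and 27.1 under siStau1. It was thus lower in both groups labelled siStau1, but its q-values in the authors' deposited table were 0.767 with DMSO and 0.685 with DAC, so the group names below rest on the labels. The epithelial genes EPCAM (259 FPKM), KRT8 (1103) and KRT18 (681) were high in siLuc DMSO, while VIL1 (0.0288) and CDX1 (listed at 0) were near or at 0. Markers of leukocytes (PTPRC, CD3E) and endothelium (PECAM1, VWF) reached at most 0.820 FPKM in any group, and of the fibroblast markers COL1A1 reached 8.60.

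Ribosomal protein genes are among the most strongly expressed genes of a growing cell, since every ribosome needs its proteins in matched amounts. Most of their mRNAs begin with a cytosine followed by an unbroken run of pyrimidines, the terminal oligopyrimidine (TOP) tract. Through this tract the mTOR pathway and the La-related protein LARP1 control their translation and stability. Surplus ribosomal proteins are degraded, and free RPL5 and RPL11, bound to 5S ribosomal RNA, inhibit the ubiquitin ligase MDM2.

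The TOP tract is the sequence feature that ties the family together, so the start regions of some of the members described below are shown beside those of paralogs that lack the tract. The sequences are from RefSeq (GRCh38.p14), 5′ to 3′ on the coding strand, with 10 bases before and 20 after the annotated start. Capitals mark the longest run of C and T that has a base within 3 bases of that start. Where a gene has more than 1 annotated start, the start with the longest such run was taken. The first lines are members that fell with DAC in siLuc, RPL28 and RPS15 are members that rose, RPS14 is the 1 member that fell in siStau1 DMSO, and the last 4 lines set paralogs beside a parent gene.
RPL22 (chr1:6199576-6199605, minus strand): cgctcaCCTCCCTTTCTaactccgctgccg
RPL22L1 (chr3:170870176-170870205, minus strand): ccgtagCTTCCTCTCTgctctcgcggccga
RPS3A (chr4:151099618-151099647, plus strand): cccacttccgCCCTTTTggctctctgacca
RPL26 (chr17:8383174-8383203, minus strand): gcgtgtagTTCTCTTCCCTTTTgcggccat
RPL34 (chr4:108620566-108620595, plus strand): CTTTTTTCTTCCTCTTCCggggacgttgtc
RPL11 (chr1:23691796-23691825, plus strand): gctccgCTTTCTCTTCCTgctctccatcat
RPL28 (chr19:55385922-55385951, plus strand): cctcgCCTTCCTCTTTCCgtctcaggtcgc
RPS15 (chr19:1438386-1438415, plus strand): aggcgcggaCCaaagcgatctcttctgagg
RPS14 (chr5:150449720-150449749, minus strand): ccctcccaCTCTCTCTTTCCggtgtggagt
RPL26L1 (chr5:172958719-172958748, plus strand): tccaggggTCggcgaacgaaacgcggagct
RPS27L (chr15:63157458-63157487, minus strand): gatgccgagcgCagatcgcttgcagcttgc
RPL10 (chrX:154398367-154398396, plus strand): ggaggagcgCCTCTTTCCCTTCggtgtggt
RPL10L (chr14:46651762-46651791, minus strand): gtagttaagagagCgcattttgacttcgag

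The tract is easy to read in these windows: RPL26 holds 14 pyrimidines in a row and RPL34 holds 18, while RPS27L and RPL10L hold 1. Of the 84 members, 67 had an entry in the promoter table. A run of at least 5 pyrimidines at the start was found in 56 of the 67, or 83.6%, against 36.0% of 14829 other protein-coding genes searched in the same way. With at least 7 pyrimidines the shares were 76.1% and 17.6%. The median run was 11 bases in members and 4 bases in the other genes. Among core genes 55 of 62 had a run of at least 5, and among paralogs 1 of 5 did, RPL22L1. These counts describe the letters around annotated starts, of which 11 members have more than 1. For members and other genes alike the start with the longest run was taken, which favours long runs. The start used in these cells was not measured.

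In untreated control cells the family was abundant and fairly even. The members' FPKM summed to 133342 in siLuc DMSO, which was 22.4% of the sum over all protein-coding genes, and 59 of the 100 highest protein-coding genes were members. Among the 76 core genes other than RPS29, the lowest level was 314 FPKM, the median 1622 and the highest 3961, a range of 12.6 times. The highest levels were those of RPL37A (3961 FPKM), RPS20 (3876), RPS18 (3730) and RPL38 (3260), and RPS27 stood at 2910. The 5 lowest of the 76 were RPS28 (314 FPKM), RPLP1 (375), RPL28 (393), RPS16 (416) and RPL22 (553). The medians of the subunits were close, at 1738 FPKM for the small and 1605 for the large subunit. Because these neighbours carry no spread, their order is that of the listed values only.

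With DAC the family's share was lower and its members were less even. In siLuc DAC the members summed to 109856 FPKM, or 18.3% of the protein-coding sum. The sum was 123208 (21.8%) in siStau1 DMSO and 103101 (18.9%) in siStau1 DAC, so both DAC groups lay below both DMSO groups. Over all genes, non-coding ones included, the members' share was 11.8% in siLuc DMSO and 6.12% in siLuc DAC, and 12.7% and 6.91% in siStau1. The FPKM sum of all genes was itself higher with DAC in both arms. The median level of the 76 core genes was 1147 FPKM in siLuc DAC, against 1475 and 1215 in siStau1 DMSO and siStau1 DAC. The SD of their log2 levels across genes was 0.771 in siLuc DMSO and 0.782 in siStau1 DMSO, and it was 1.10 in siLuc DAC and 0.836 in siStau1 DAC. In siLuc DAC the highest core gene, RPL37A at 4439 FPKM, was 37.1 times the lowest, RPL22 at 120. Members among the 100 highest protein-coding genes numbered 42 in siLuc DAC, and 61 and 52 in siStau1 DMSO and siStau1 DAC. A lower FPKM in a bulk sample cannot tell less RNA per cell from fewer cells with that RNA.

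**Figure D1:**
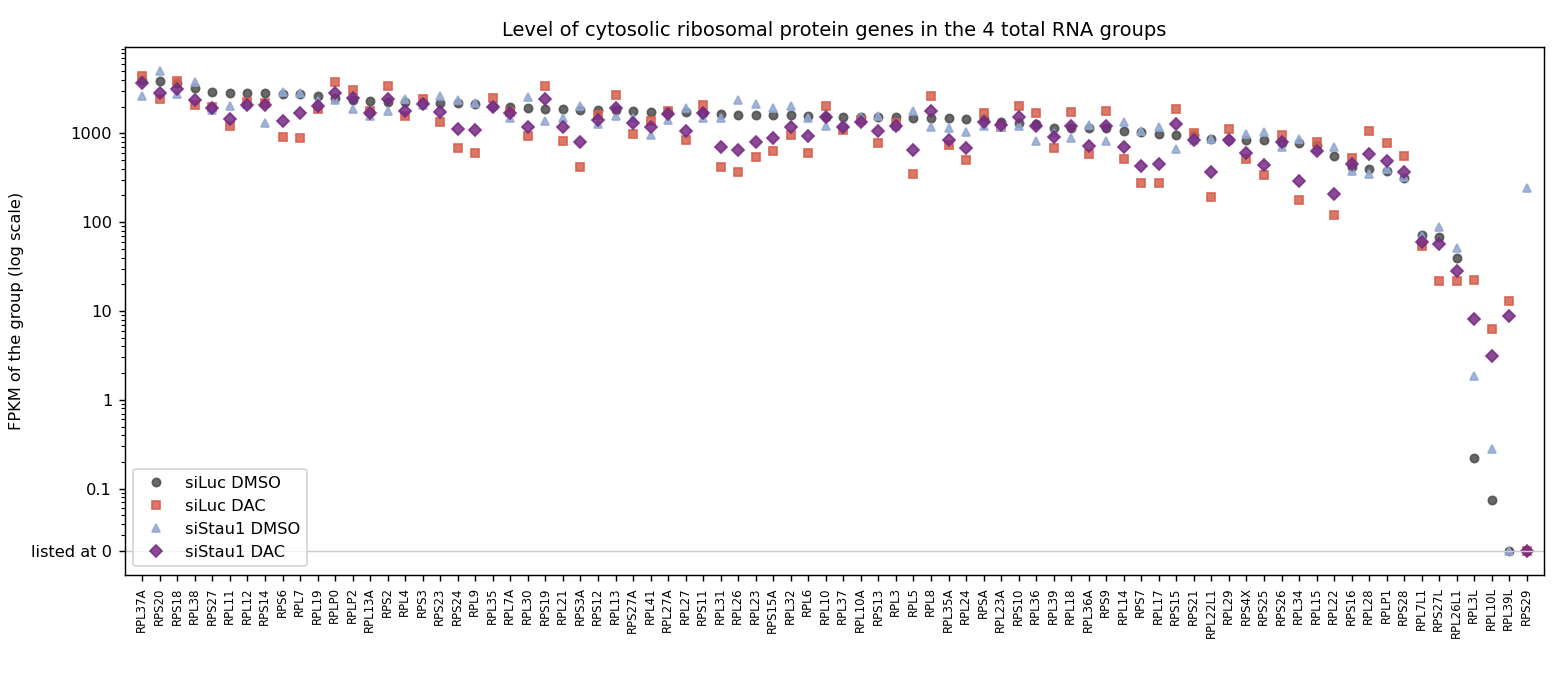
FPKM of 80 of the 84 members in the 4 groups, on a log axis, ordered by the level in siLuc DMSO. Each point is the authors' value for 1 group of 2 libraries and has no error bar. Core genes lie between 120 and 5010 FPKM except RPS29, which is listed at 0 in 3 groups, and 3 paralogs at the right are higher in both DAC groups.

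RPS29, a protein of the small-subunit head, is the exception among core genes. It was listed at 0 in siLuc DMSO, siLuc DAC and siStau1 DAC and at 244 FPKM in siStau1 DMSO, with the status LOWDATA and no test in the authors' deposited table. LRR1 and the pseudogene RPL32P29, which overlap it in the annotation, were also listed at 0 in the same 3 groups, and at 11.6 and 18.7 FPKM in siStau1 DMSO. Since a living cell uses RPS29, the zeros are not read as absence and no ratio is given.

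The first comparison asks how DAC changed the family in control cells. Of 83 members tested in the authors' deposited table, 25 fell and 4 rose in siLuc DAC against siLuc DMSO, 29 in all or 34.9%. The share called among all 17504 genes tested was 13.5% in that table, with 4.78% lower and 8.71% higher. Among genes at or above 100 FPKM in both groups, members included, 20% were called, 9.45% lower and 10.5% higher. That bound leaves out genes that fell below 100 FPKM with DAC, and also genes that rose from below it. Of 836 other protein-coding genes with at least 100 FPKM in siLuc DMSO, chosen by that level alone, 163 fell and 49 rose, or 25.4%. The median log2 ratio was -0.43 over 80 members with at least 1 FPKM in both groups (order-statistic 95% interval over genes, which takes them as independent, -0.78 to -0.17), against 0.08 over all protein-coding genes. It was -0.45 over the 836 other genes. Those were chosen by a high level in siLuc DMSO, the group divided by, which by itself favours low ratios. The likeness of these medians therefore does not show that the family moved as other abundant genes did. At least 2-fold lower were 25 members and at least 2-fold higher 3, while 15.2% and 17.8% of protein-coding genes passed those bounds.

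The large subunit held most of the genes that fell. RPL22, an RNA-binding protein whose gene is often truncated in microsatellite-unstable tumours, stood at 553 FPKM without and 120 with DAC under siLuc, and at 698 and 207 under siStau1. Both DAC groups lay below both DMSO groups, and RPL22 fell by 2.21 on the log2 scale in siLuc (q = 0.0173 in the authors' deposited table). RPL26, which sits near the exit of the peptide tunnel, stood at 1623, 369, 2387 and 658 FPKM in the same order of groups. It fell by 2.14 in siLuc and fell by 1.86 in siStau1 (q = 0.00162 for both in the authors' deposited table, the smallest q it holds). RPL34 stood at 774, 177, 855 and 292 FPKM and fell by 2.13 in siLuc. For these 3 genes the highest level was in siStau1 DMSO and the lowest in siLuc DAC.

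RPL5 and RPL11, the 5S RNA partners that inhibit MDM2, both fell with DAC in siLuc. RPL5 stood at 1493 FPKM without and 349 with DAC under siLuc, and at 1789 and 646 under siStau1, and it fell by 2.10 in siLuc and fell by 1.47 in siStau1 (q = 0.00162 for both in the authors' deposited table). RPL11 stood at 2853, 1223, 2017 and 1462 FPKM. Its fall by 1.22 in siLuc had a q of 0.0165 in the authors' deposited table, while in siStau1 its log2 ratio was -0.46 with a q of 0.554. RPL31 stood at 1656, 416, 1473 and 710 FPKM. It fell by 1.99 in siLuc and had the highest GC content of the principal transcript, 53.6%, of the core genes that fell there. The GC content of its coding sequence was lower, at 47.5%. The other large-subunit genes that fell in siLuc were RPL9 (log2 ratio -1.84), RPL17 (-1.82), RPL7 (-1.61), RPL23 (-1.58), RPL24 (-1.53), RPL6 (-1.42), RPL21 (-1.18), RPL30 (-1.06), RPL27 (-1.05), RPL14 (-1.03) and RPL35A (-0.98). In all, 17 of 43 large-subunit genes fell and 1 rose, with a median log2 ratio of -0.54.

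In the small subunit 6 of 30 tested genes fell and 2 rose, with a median log2 ratio of -0.20. RPS3A, which lies by the mRNA exit, stood at 1843 FPKM without and 415 with DAC under siLuc, and at 2052 and 793 under siStau1. It fell by 2.15 in siLuc and fell by 1.37 in siStau1 (q = 0.00162 for both in the authors' deposited table). RPS7, another MDM2 binder, stood at 1038, 279, 1066 and 430 FPKM and fell by 1.90 in siLuc. RPS6, the substrate of S6 kinase downstream of mTOR, stood at 2755, 908, 2937 and 1369 FPKM and fell by 1.60 in siLuc. RPS24 (log2 ratio -1.65) and RPS25 (-1.31) also fell. RPS27A, which encodes a ubiquitin fusion, stood at 1779, 973, 1478 and 1295 FPKM (log2 ratio -0.87, q = 0.0992 in the authors' deposited table). RPSA, the laminin-receptor-related protein, stood at 1443, 1698, 1225 and 1354 FPKM (log2 ratio 0.24).

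Core genes that rose with DAC in siLuc numbered 3, and all lie on chromosome 19. RPL28 stood at 393 FPKM without and 1059 with DAC under siLuc, and at 345 and 587 under siStau1, a log2 ratio of 1.43 in siLuc (q = 0.0266 in the authors' deposited table). UBE2S, which overlaps RPL28 on the opposite strand, stood at 68.2, 233.9, 50.2 and 134.8 FPKM, and its part in the value of RPL28 was not tested. RPS15, whose tail reaches the decoding site, stood at 954, 1875, 673 and 1266 FPKM (log2 ratio 0.97, q = 0.0285 in the authors' deposited table). Against the median of protein-coding genes of like GC content the log2 ratio of RPS15 was 0.044 and that of RPL28 0.50. For both RPL28 and RPS15 the level was highest in siLuc DAC and lowest in siStau1 DMSO. Of the 12 members on chromosome 19, 11 had a log2 ratio above 0 with DAC in siLuc, with a median of 0.69, and none was called lower. The median over the other 64 core genes with values was -0.65. This split by chromosome was looked at after the values were seen, and the 12 genes are also GC-rich, from 53.8% to 62.1%.

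None of the 3 stalk genes was called. RPLP0, the base of the stalk that recruits elongation factors, stood at 2516 FPKM without and 3816 with DAC under siLuc, and at 2374 and 2872 under siStau1. RPLP1 stood at 375, 784, 402 and 485 FPKM, a log2 ratio of 1.06 in siLuc with a q of 0.0654 in the authors' deposited table. RPLP2 stood at 2399, 3104, 1877 and 2518 FPKM. Within each siRNA all 3 were higher with DAC, by log2 ratios of 0.37 to 1.06 in siLuc and 0.27 to 0.42 in siStau1. Against genes of like GC content this shared direction was lost, with RPLP2 at -0.73 in siLuc and -0.35 in siStau1.

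The response to DAC followed the GC content of the transcripts. Ranked by the GC content of the principal GENCODE transcript, the core genes were split into 3 classes of like size. With DAC in siLuc the median log2 ratio was -1.06 in the GC-poor class (under 47.7% GC), -0.33 in the middle class and 0.50 in the GC-rich class (over 52.3%). Core genes called lower numbered 15, 7 and 1 in these classes, and core genes called higher 0, 0 and 3. The shares of all genes called at like GC content are not given here. These counts are therefore not read as particular to the members. Over all protein-coding genes the median log2 ratio was -0.43 near 44.3% GC and 0.61 near 56.5% GC. Spearman's rho between GC content and the log2 ratio was 0.75 over 76 core genes, and 0.87 with the GC content of the coding sequence alone. All protein-coding genes showed a like relation, with a rho of 0.67 over 10953 genes. These points are genes from the same libraries, share depth and base composition, and are not independent, so no p is given. The length of the principal transcript had a rho of 0.08 with the ratio over the 76 core genes. Which transcripts these cells used was not measured, and some principal ones are long, such as that of RPL37 (7686 bases, 291 of them coding). The GC classes depend on the same choice: RPL37A had 44.7% GC in the transcript and 52.5% in the coding sequence. Against the median of protein-coding genes of like GC content, the members' median was -0.43, the same as without that step. The same step gave -0.38 over the 836 other abundant genes, chosen in siLuc DMSO. It gave -0.59 over 78 genes of the mitochondrial ribosome and -0.17 over 28 ribosome biogenesis factors. A median below 0 after this step was thus not particular to the members. The class medians moved to -0.84 in the GC-poor, -0.41 in the middle and -0.19 in the GC-rich class, so the sign of the GC-rich class turned. The part of GC content in the calls was not tested.

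**Figure D2:**
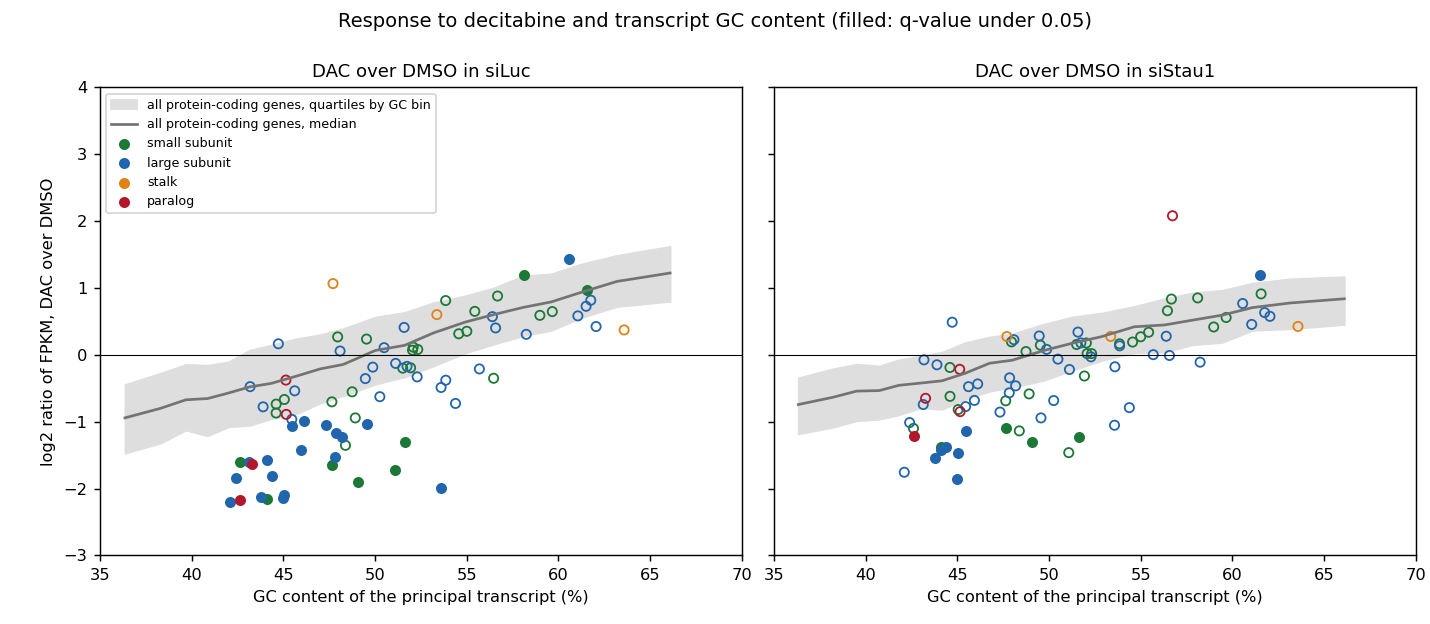
Log2 ratio of FPKM, DAC over DMSO, against the GC content (%) of each member's principal transcript, in siLuc (left) and siStau1 (right). Filled points have a q-value under 0.05 in the authors' deposited table, and the grey line and band are the median and quartiles of all protein-coding genes. GC-poor members lie low and GC-rich members high, with medians of -1.06 and 0.50 in the GC-poor and GC-rich classes of core genes in siLuc.

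The second comparison repeats DAC against DMSO in cells labelled siStau1, which share no group with the first. Of 83 members tested, 11 fell and 2 rose in the authors' deposited table, 15.7% against 7.46% of all genes tested (2.89% lower and 4.56% higher). Of the 13 members called, 12 were also called in siLuc. A further 17 members were called in siLuc only, which is not a test of the difference between the arms. The 11 that fell were RPL26 (log2 ratio -1.86), RPL34 (-1.55), RPL5 (-1.47), RPL23 (-1.42), RPL17 (-1.38), RPS3A (-1.37), RPS7 (-1.31), RPS25 (-1.23), RPL22L1 (-1.21), RPL30 (-1.14) and RPS24 (-1.10). RPL22 had a log2 ratio of -1.76 there with a q of 0.0847.

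The members' median log2 ratio in siStau1 was -0.15 (order-statistic 95% interval over genes -0.48 to 0.05), against 0.03 over all protein-coding genes and -0.17 over the other abundant ones. Against genes of like GC content it was -0.26, and that of the other abundant genes -0.12. The ratios of the 76 core genes ran in nearly the same order in both arms, with a rho of 0.92, and of 0.83 after subtracting in both arms the median of genes of like GC content. By GC class the core medians were -0.82, -0.06 and 0.31, a narrower span than in siLuc. Subtracting the DAC log2 ratio of the siLuc arm from that of the siStau1 arm gave a median of 0.16 over core genes, above 0 for 47 and below 0 for 29, and a median of 0.0077 over all protein-coding genes. It ranged from -0.79 in RPLP1 to 1.01 in RPS14. Its rho with transcript GC content was -0.53 over core genes and -0.31 over all protein-coding genes. With 1 value per group this difference could not be tested.

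Other lists from the translation machinery, drawn up with earlier results of these data known, were set beside the members. Of 78 genes of the mitochondrial ribosome, whose products work in another compartment, 22 fell and 6 rose with DAC in siLuc in the authors' deposited table (35.9%), and 11 fell and 1 rose in siStau1. Their medians were -0.55 and -0.21, with MRPL1 at -3.07 and MRPL13 at -2.42 and, on the other side, MRPL41 at 1.80 and MRPS12 at 1.67 in siLuc. Of 19 other mRNAs known to carry a TOP tract, 6 fell and none rose in siLuc, with a median of -0.84, and 4 of the 6 also fell in siStau1. The 6 were the nucleolar chaperone NPM1 (log2 ratio -2.02), TPT1 (-1.97), the initiation factor subunit EIF3E (-1.75), the elongation factor subunit EEF1B2 (-1.49), NAP1L1 (-1.33) and NACA (-1.10). Of 28 ribosome biogenesis factors 3 rose and 2 fell: EIF6, which keeps the subunits apart, had a log2 ratio of 1.71, BYSL 1.44 and BOP1 1.28, against -2.16 for BRIX1 and -1.67 for RPF2, which brings the 5S particle with RPL5 and RPL11 into the ribosome. Of the 5 dedicated chaperones, BCCIP, the chaperone of RPL23, fell by 1.84 in siLuc and GRWD1, the chaperone of RPL3, had a log2 ratio of 2.03 in siStau1, where it was called higher.

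The ribosomal proteins outside the naming rule showed values of both signs. RPL36AL stood at 446 FPKM without and 229 with DAC under siLuc, and at 360 and 283 under siStau1, and it fell by 0.96 in siLuc (q = 0.0266 in the authors' deposited table). FAU had a log2 ratio of 0.28 in siLuc and RACK1 0.51, neither called. CDKN1A, an inhibitor of the cell cycle, stood at 51.1, 191.6, 47.5 and 163.1 FPKM and rose with DAC in both arms (q = 0.00162 for both in the authors' deposited table). MDM2 stood at 85.3, 115.9, 127.1 and 153.2 FPKM and was not called.

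**Figure D3:**
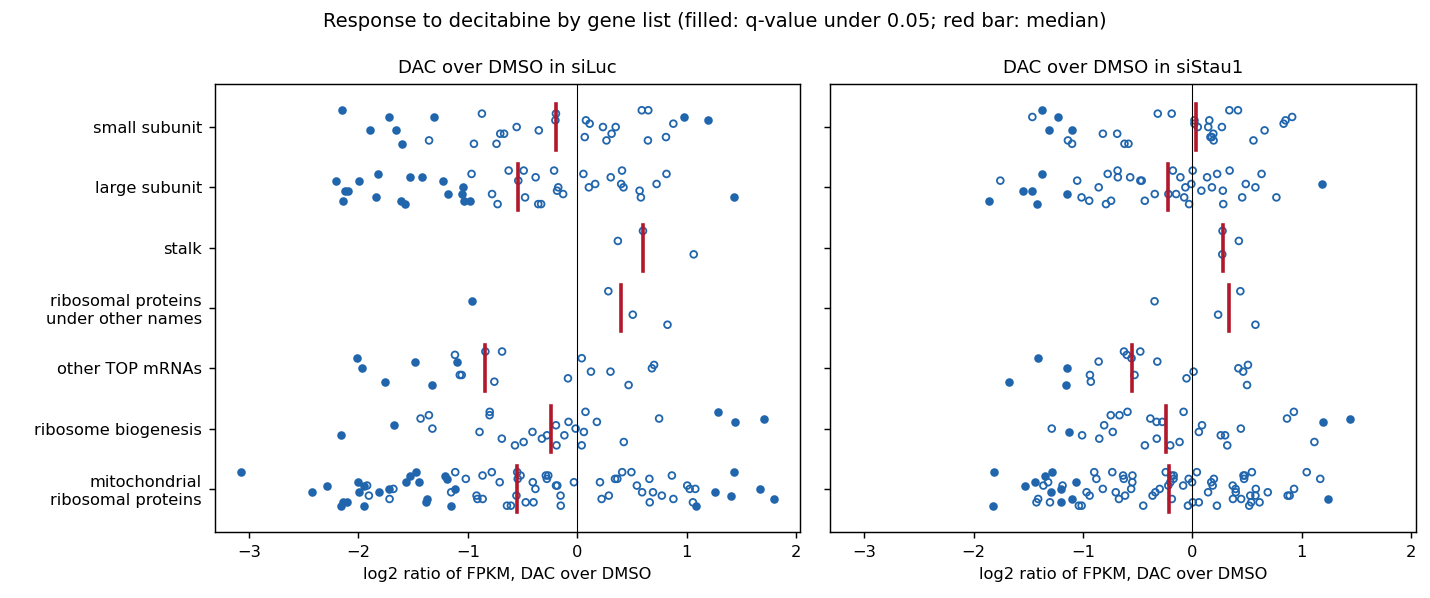
Log2 ratio of FPKM, DAC over DMSO, for single genes (points) of 7 lists in siLuc (left) and siStau1 (right), for genes reaching 1 FPKM in both groups. Red bars are list medians and filled points have a q-value under 0.05 in the authors' deposited table. The large subunit (-0.54 in siLuc) and the mitochondrial ribosomal proteins (-0.55) have like medians, and the stalk lies above 0.

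The paralogs split into a group listed at or near 0 without DAC and a group expressed in all 4 groups. RPL39L, a testis-enriched variant of the tunnel protein RPL39, was listed at 0 in siLuc DMSO and siStau1 DMSO and at 13.1 and 8.88 FPKM in siLuc DAC and siStau1 DAC. It rose in both arms (q = 0.00162 for both in the authors' deposited table), and no fold is given against a value of 0. RPL3L, a striated-muscle variant of RPL3, stood at 0.222 FPKM without and 22.4 with DAC under siLuc, and at 1.85 and 8.16 under siStau1. Its q-values for DAC in the authors' deposited table were 0.0667 in siLuc and 0.0890 in siStau1, so it was not called. RPL10L, an intronless testis gene that stands in for the X-linked RPL10 during male meiosis, stood at 0.0748, 6.33, 0.280 and 3.08 FPKM, with q-values of 0.543 and 0.215. For all 3 both DAC groups lay above both DMSO groups, and siLuc DAC was highest.

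Even with DAC these 3 paralogs stayed far below their parents. RPL39L reached 1.92% of the FPKM of RPL39 in siLuc DAC, RPL3L 1.71% of RPL3 and RPL10L 0.310% of RPL10. RPL39 itself stood at 1165, 679, 1000 and 902 FPKM, RPL3 at 1512, 1306, 1219 and 1221, and RPL10 at 1539, 2044, 1198 and 1516, and none of these parents was called in any comparison. Because DAC blocks the enzymes that methylate CG sites, the 250 bases before the RPL10L start are shown with each CG in capitals (RefSeq, GRCh38.p14, chr14:46651782-46652031, minus strand).
RPL10L: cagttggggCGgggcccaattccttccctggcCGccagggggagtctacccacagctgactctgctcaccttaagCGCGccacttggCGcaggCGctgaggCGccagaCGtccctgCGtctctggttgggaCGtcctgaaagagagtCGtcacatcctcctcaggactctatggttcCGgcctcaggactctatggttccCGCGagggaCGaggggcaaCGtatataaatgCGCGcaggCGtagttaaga
The stretch holds 19 CG pairs, and 46.2% of other protein-coding genes hold at least as many in the same window. The median was 20 in members and 17 in other genes, and no methylation was measured here.

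The other 4 paralogs were expressed without DAC. RPL22L1 stood at 874 FPKM without and 193 with DAC under siLuc, and at 855 and 370 under siStau1, and it fell by 2.18 in siLuc and fell by 1.21 in siStau1. It was above its parent RPL22 in every group, at 158%, 161%, 122% and 179% of the RPL22 level, so the pair was lower together with DAC. RPS27L stood at 68.0, 21.9, 88.5 and 56.3 FPKM and fell by 1.63 in siLuc (q = 0.0118 in the authors' deposited table). Its parent RPS27 stood at 2910, 1982, 1857 and 1921 FPKM and was not called. RPL26L1 stood at 40.0, 21.5, 50.9 and 28.2 FPKM, between 2.13% and 5.83% of RPL26, and was not called. RPL7L1, a relative of RPL7, stood at 71.0, 54.6, 70.4 and 60.6 FPKM against 2744, 899, 2854 and 1704 for RPL7, which fell in siLuc.

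**Figure D4:**
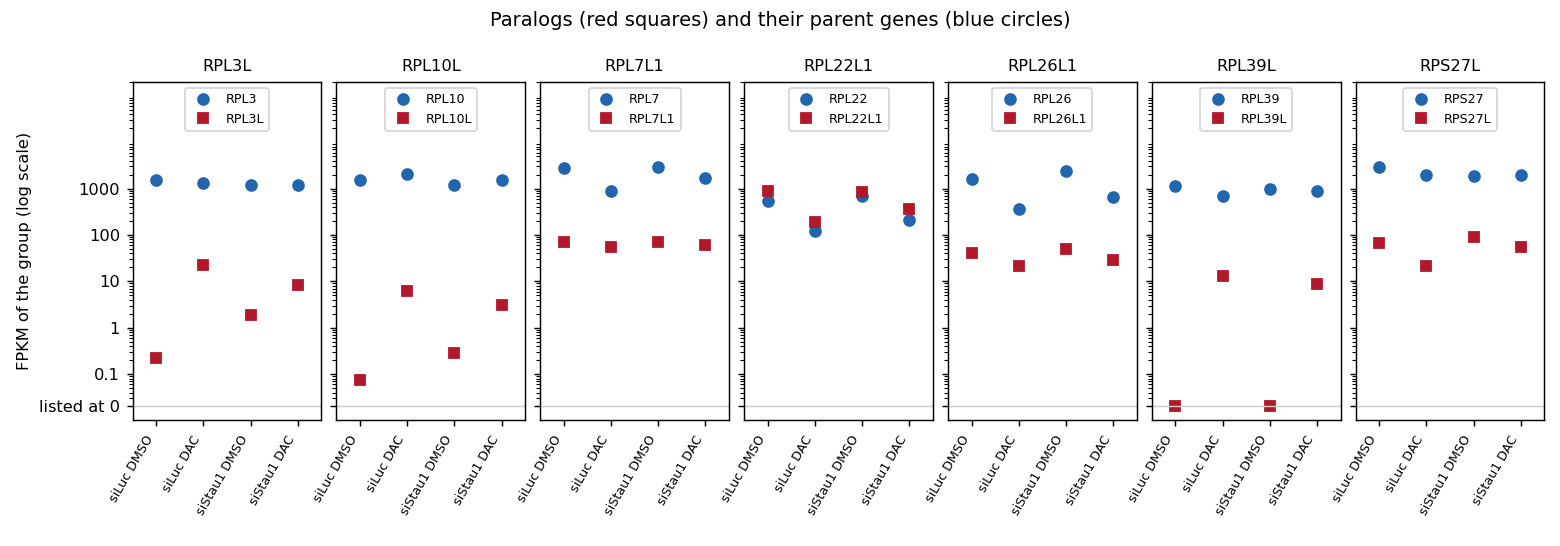
FPKM (log axis) of the 7 paralogs (red squares) and their parent genes (blue circles) in the 4 groups, 1 value per group with no error bar. RPL3L, RPL10L and RPL39L are higher in both DAC groups and stay below 2% of their parents, while RPL22L1 lies above RPL22 throughout.

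The last comparisons set siStau1 against siLuc. They share no group with each other, but each shares both its groups with the DAC comparisons, so values from the 2 kinds of comparison are not independent. With DMSO, 1 of 81 tested members was called in the authors' deposited table, 1.23% against 0.799% of all genes tested (0.333% higher and 0.466% lower). That member was RPS14, a platform protein of the small subunit whose single-copy loss marks the anaemia of the 5q- syndrome. RPS14 stood at 2817 FPKM without and 2208 with DAC under siLuc, and at 1308 and 2065 under siStau1. Only siStau1 DMSO was low among the 4 groups. RPS14 fell by 1.11 with siStau1 in DMSO (q = 0.0285 in the authors' deposited table), and with DAC its log2 ratio was -0.10. The call is lost when q is adjusted within this comparison alone.

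Among the lowest other log2 ratios with siStau1 in DMSO was that of RPL41, which encodes the smallest ribosomal protein, at -0.86, not called. Among members with at least 1 FPKM in both groups the highest were RPL26 at 0.56, RPL30 at 0.42 and RPL23 at 0.39, also not called. RPL3L, under 1 FPKM in siLuc DMSO, had a log2 ratio of 2.60 (q = 0.258 in the authors' deposited table). The median over 80 members was -0.13 (order-statistic 95% interval over genes -0.21 to 0.02), against -0.02 over all protein-coding genes and -0.15 over other abundant ones. The abundant genes were again chosen by their level in siLuc DMSO, the group divided by, which favours low ratios. After subtracting the median of genes of like GC content the members' median was 0.01.

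With DAC, none of 83 tested members was called in the authors' deposited table, where 0.904% of all genes tested were called. The authors' unadjusted p was under 0.05 for 12 members. It was so for 1065 of 13279 protein-coding genes tested and for 128 of 836 other abundant genes. RPL5 came nearest among core genes, with a log2 ratio of 0.89 and a q of 0.0512. The highest ratios were RPS27L at 1.36, RPL22L1 at 0.94 and RPS3A at 0.93, and the lowest were RPL3L at -1.44, RPL10L at -1.02 and RPL28 at -0.85. The median over 83 members was -0.05 (order-statistic 95% interval over genes -0.19 to 0.22), against -0.09 over all protein-coding genes and 0.13 over other abundant ones. The sign of this median changed to above 0 when FPKM was scaled to the protein-coding sum or set against genes of like GC content.

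The siStau1 ratios also followed GC content, in the direction opposite to that of DAC. By GC class the core medians were 0.13, -0.18 and -0.26 with DMSO and 0.41, -0.07 and -0.42 with DAC. Over 76 core genes rho with transcript GC content was -0.49 with DMSO and -0.76 with DAC, and over all protein-coding genes it was -0.49 and -0.73. The 2 siStau1 ratios had a rho of 0.55 with each other over the core genes, and of 0.29 after subtracting the median of genes of like GC content from both. Genes that were low in siLuc DAC, such as RPL22 (120 FPKM), RPL31 (416) and RPS3A (415), stood at 207, 710 and 793 FPKM in siStau1 DAC. The DAC ratio in siLuc and the siStau1 ratio with DAC share the siLuc DAC group, so a low value there lowers the first and raises the second. NPM1, from the list of other TOP mRNAs, was the only gene of the lists named here on translation that rose with siStau1 in DAC (log2 ratio 0.98, q = 0.0314 in the authors' deposited table).

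**Figure D5:**
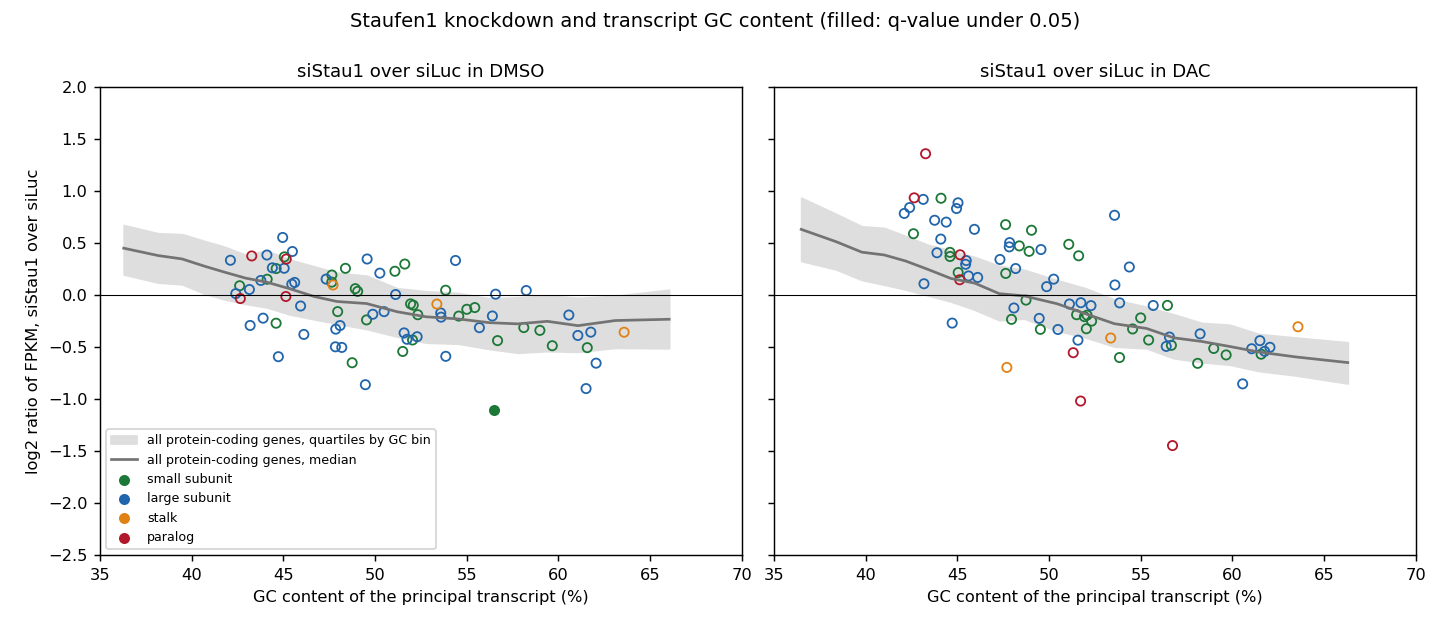
Log2 ratio of FPKM, siStau1 over siLuc, against the GC content (%) of each member's principal transcript, with DMSO (left) and DAC (right), with the grey line and band as the median and quartiles of all protein-coding genes. The 1 filled point, RPS14 at -1.11, is the only member with a q-value under 0.05 in the authors' deposited table, and members follow the falling grey line, with core medians of 0.41 and -0.42 in the GC-poor and GC-rich classes with DAC.

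Other features of the gene loci were compared as well. In all, 28 members, all core genes, carry 60 small nucleolar RNA genes within their bounds, and the median log2 ratio with DAC in siLuc was -0.36 for these hosts and -0.42 for the other core genes. The authors' deposited table called 7 of the 28 hosts and 19 of the 48 other core genes tested with DAC in siLuc, and 6 and 5 of them in siStau1, so the order of the shares differed between the arms. The annotation holds 1145 pseudogenes named after 77 of the members, and reads of near-identical copies cannot be told apart with certainty. Their summed FPKM was 1.71% of the members' sum in siLuc DMSO, 1.60% in siLuc DAC, and 2.10% and 1.52% in siStau1 DMSO and siStau1 DAC. Among members above 0 in siLuc DMSO, only RPS2 had pseudogenes summing to more than 10% of its own level there, at 752 FPKM against 2284. Another gene overlaps 15 members on the same strand, such as RPL17-C18orf32 over RPL17 (5.92 FPKM against 981 in siLuc DMSO), and 37 members are overlapped on the opposite strand.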

How the data were processed

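Total RNA of HCT116 cells was analysed in 4 groups of 2 libraries, and 3 tables of antibody-enriched repeat reads, which hold no genes, were not used. The FPKM values are the authors', 1 per group, in a Cuffdiff layout per the file headers. Per the submitters' processing notes the tools included HISAT2 2.1.0, Cuffdiff 2.2.1 and the build hg38, with no role given. The p-values and q-values are also the authors' deposited ones: recomputing showed q to be the Benjamini-Hochberg value over 102180 tests of 6 comparisons, 4 of which are used here. The planned count tests need values per library and were replaced by these calls (q under 0.05). Log2 ratios (pseudocount 0.1, at least 1 FPKM in both groups for medians) were computed with pandas 2.3.3. Positions, biotype, and GC content of the principal, then shortest, transcript came from GENCODE 29 (GRCh38), which held all 58699 identifiers. GC centring subtracted the median of protein-coding genes in 20 bins. This step and the Benjamini-Hochberg adjustment were checked on simulated data. Depth is unknown, and nothing says the libraries are separate cultures, so p-values measure only the spread between libraries, which may be technical. Members called in any comparison, extremes of each comparison and the paralogs were named. The family and the lists were chosen with earlier results of these data known, while the naming rule itself uses no measured value. Some genes, 4 of them members, are counted but not reported by name here.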

Additional observations from a re-analysis of the deposited data

How the results depend on the processing

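The calls rest on the authors' q-values, since no test over libraries was possible. At a q-value limit of 0.01 the members called with DAC in siLuc numbered 17 instead of 29, and the member called with siStau1 in DMSO was lost (0 left), as it was (0) when q was adjusted within that comparison. At a limit of 0.1, 20 members were called with DAC in siStau1 instead of 13, and 7 with siStau1 in DAC instead of 0. The shares of all tested genes at limits of 0.01 and 0.1 are not given here. These counts thus show only how the members' calls depend on the limit. The median with siStau1 in DMSO turned from -0.13 to 0.0090 after centring within GC bins. The median with siStau1 in DAC turned from -0.05 to 0.097 scaled to the protein-coding sum, 0.044 centred on the protein-coding median, 0.10 centred within GC bins and 0.092 over members with at least 10 FPKM. Alternatives added after seeing the data, GC bins of the longest transcript and of the coding sequence, gave 0.096 and 0.032 for it. Both DAC medians stayed below 0 under all alternatives run, and of 43 member calls none changed direction, while 17 were lost at a limit of 0.01. No paired analysis was possible because the table holds 1 value per group and no value per library; count models, other normalizations and leaving out replicates were not run for the same reason.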
